A study of Mus musculus with 4 samples.

Results

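The contractile genes of smooth muscle were measured in mouse calvarial osteoblast cultures in which Runx3, a Runt-family transcription factor, was targeted. The set holds 10 genes chosen by function: Acta2, Tagln, Cnn1, Myh11, Mylk, Tpm1, Tpm2, Des, Lmod1 and Actg2. Each is represented by the row of the deposited table that carries its symbol alone and has the highest mean over the arrays, and all 10 had such a row among the 22180 genes so named. The cultures came from newborn skull bone and were kept for 21 days in osteogenic medium with ascorbate and glycerol phosphate. There were 2 arrays of Runx3f/f/Col1a1-cre cultures, in which Cre recombinase under a type I collagen promoter acts on floxed Runx3 alleles, and 2 arrays of wild-type cultures, each pair being labelled biological replicates 1 and 2. The labels do not say which exons are floxed, whether wild-type cultures carried a Cre or floxed allele, or how many animals gave each culture. Cells of the culture that do not use the collagen promoter would keep their Runx3 in either group. The deposited values are treated as log2 levels, so a difference of 1 is taken to be a 2-fold difference, although the sources used here do not give the log base.

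Runx3 itself read 7.94 and 8.06 in replicates 1 and 2 of the mutant-labelled arrays and 7.45 and 7.87 in wild type, so the labelled deletion was not visible as a lower level of this gene. The former arrays are therefore called mutant-labelled, and each direction below rests on the labels. Arrays of replicate 2 were brighter than those of replicate 1 by a median of 0.28 over the 17841 genes tested, in either group. Within a replicate number, many rows held exactly equal mutant-labelled and wild-type values (37.8% of all rows in replicate 1 and 45.1% in replicate 2), which no other pair of arrays did in any row, and the sources used here do not say how this arose. A level of 4.71, the 90th percentile of olfactory and vomeronasal receptor rows, served as the background. All 10 contractile genes lay above it on all 4 arrays, the lowest value being 7.59, for Des.

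Smooth muscle cells shorten when myosin filaments pull on actin filaments anchored at dense bodies and at the cell membrane. Contraction starts when calcium-bound calmodulin activates myosin light chain kinase, which phosphorylates the myosin light chain. The actin, myosin and actin-binding isoforms of this apparatus are transcribed largely under serum response factor (SRF), which binds CArG boxes together with myocardin or the related MRTF coactivators. Fibroblastic cells that spread on culture plastic, osteoblasts and pericytes among them, can also express several of these genes, Acta2 and Tagln in particular, while Myh11 and Lmod1 are more restricted to smooth muscle.

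Of the contractile genes, 7 had a promoter window in the RefSeq table used here (GRCm38.p6, 250 bases before to 50 after an annotated start). Windows of Tagln, Myh11 and Actg2 were not analysed here. The windows were searched for CArG boxes, the SRF recognition element, and for TGTGGT, a core motif recognised by Runt factors, on both strands. A CArG box with only A or T at its 6 middle positions was in 0 of the 7 windows and in 1.63% of all 32851 windows. With at most 1 C or G among those 6 positions it was in 1 of the 7, that of Acta2, and in 9.98% of all windows. TGTGGT or its reverse complement was in 1 of the 7, that of Mylk, and in 16.8% of all windows. These stretches of the Acta2 window, in which a pair of such CArG boxes begin 84 and 34 bases before the annotated start, and of the Mylk window, in which a pair of TGTGGT matches on the reverse strand begin 93 and 83 bases before it, are printed 5′ to 3′ on the gene's strand with the matches in capitals. They are shown because Acta2 is the classical CArG-driven gene of the set and Mylk the gene with the largest difference below. The Acta2 stretch is on the minus strand at chr19:34255374-34255473 and the Mylk stretch on the plus strand at chr16:34784830-34784929. The annotated starts used lie 212 bases inside the span RefSeq gives to Acta2 and 39751 bases inside that of Mylk.
Acta2: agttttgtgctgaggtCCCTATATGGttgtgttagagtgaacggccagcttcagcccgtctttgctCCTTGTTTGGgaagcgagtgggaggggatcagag
Mylk: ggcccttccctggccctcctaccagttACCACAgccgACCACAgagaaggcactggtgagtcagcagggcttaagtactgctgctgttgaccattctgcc
A match is a description of the sequence; binding was not measured in these cultures.

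The contractile genes did not move as 1 block. In both replicates the myosin heavy chain gene Myh11, the kinase gene Mylk, the intermediate filament gene Des and the enteric actin gene Actg2 read higher on the mutant-labelled arrays, by 0.27 to 0.77 on average on the log2 scale, while Acta2, Tagln, Cnn1 and Tpm2 read lower, by 0.11 to 0.27. Tpm1 and Lmod1 held equal or nearly equal values. The 8 directions were the same within both replicates after quantile normalization again and after median centring of each array, and Lmod1 then differed by -0.01 and -0.03 or by -0.05 and -0.03. So 4 of the 10 were higher in both replicates, beside 16.8% of all genes tested, and 4 were lower in both, beside 19.5%. Genes with exactly equal values in both replicates, 25.7% of those tested and 1 of the 10, can count in neither share. The part of gene level in these counts was not tested. Only Mylk was at least 1.5-fold higher in both replicates, as were 1.47% of genes tested, and 0 of the 10 were at least 1.5-fold lower in both, where 1.15% were. The median difference over the 10 was -0.01 (-0.01 within replicate 1 and 0 within replicate 2) and that over all genes tested was 0.

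Tested across all genes with limma (group as the only term, two-sided, Benjamini-Hochberg adjustment), 0 of the 10 passed an adjusted p of 0.05, and 0% of the genes tested did. At an unadjusted limma p under 0.05 there were 2 of the 10, Mylk and Myh11, beside 3.96% of genes tested. After a further quantile normalization with the replicate number as a block, Mylk (limma, adjusted p = 0.0387) and Myh11 (adjusted p = 0.0481) were called, beside 2.3% of 17328 genes tested there. Neither step alone called these genes. With the block alone the adjusted limma p was 0.155 for Mylk and 0.248 for Myh11. With quantile normalization alone it was 0.124 and 0.236. The labels call the 2 arrays of a group biological replicates without naming separate litters or animals. Without the block, the p-values therefore rest on the spread between these arrays, which may in part be technical. In each fit limma also draws the error of a gene toward a variance estimated over all genes tested. With the block, the offset between replicate numbers is removed. The error then rests on how far the 2 within-replicate differences disagree, in the gene itself and over all genes tested. For Mylk the SE was 0.0036 with the block alone and 0.12 with group as the only term. Its own replicate offset was only 0.02 in each group, so the SE of 0.12 came mostly from the variance over all genes. Arrays of the same replicate number share many exactly equal values of unknown origin, so the block error cannot be read as a spread between independent cultures.

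**Figure D1:**
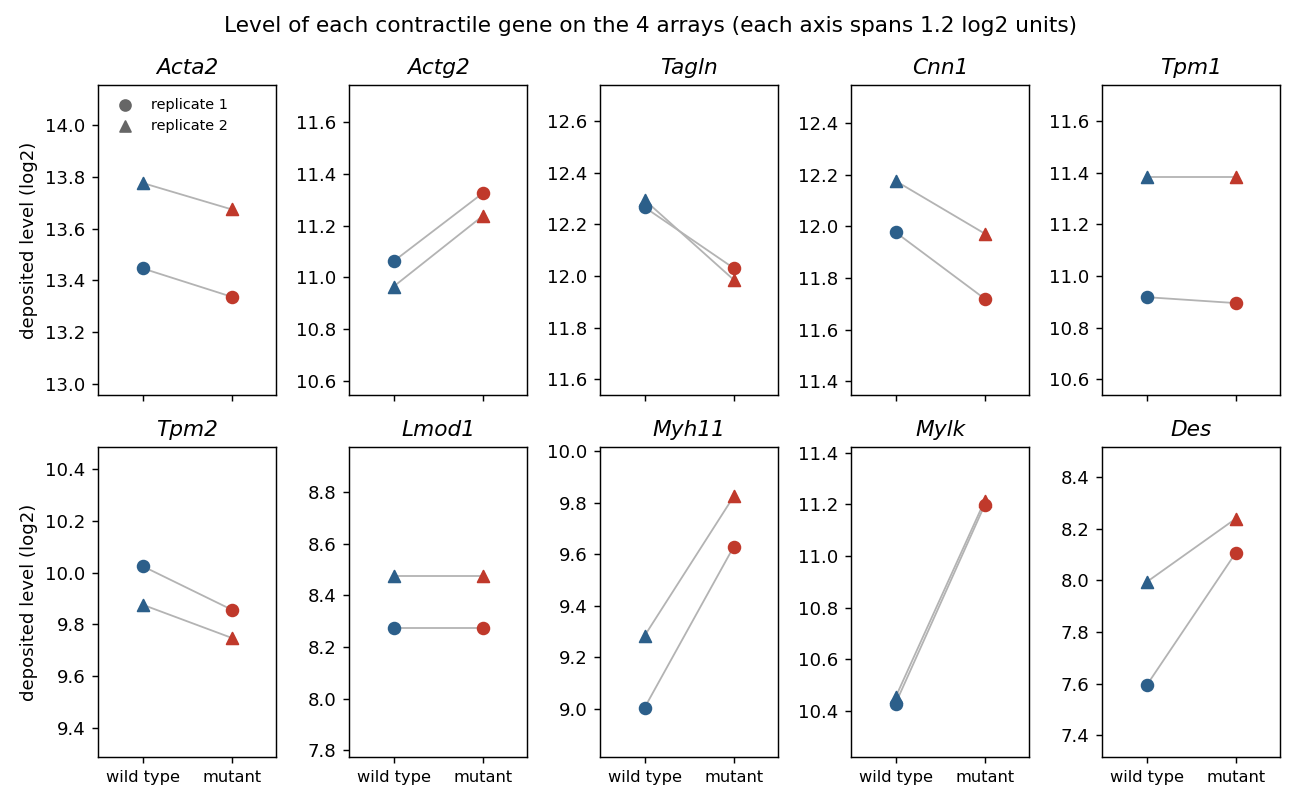
Deposited log2 level (vertical axes, each spanning 1.2 units) of the 10 contractile genes in wild type (blue) and mutant-labelled (red) arrays; circles are replicate 1, triangles replicate 2, and grey lines join arrays of the same replicate number. Lines for Actg2, Myh11, Mylk and Des slope up in both replicates, those for Acta2, Tagln, Cnn1 and Tpm2 slope down, and those for Lmod1 are flat.

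Myosin and its activating kinase showed the largest differences. Mylk encodes myosin light chain kinase (transcript cluster 17325159). It read 11.20 and 11.22 on the mutant-labelled arrays and 10.43 and 10.45 in wild type, replicates 1 and 2 in each case. The groups were far apart compared with the spread within each, which was 0.02 at most. The level was 11.21 ± 0.01 against 10.44 ± 0.02 (SD, n = 2), which is a difference of 0.77 on the log2 scale (SE 0.12, limma adjusted p = 0.504). This is 1.71-fold higher within replicate 1 and 1.70-fold within replicate 2. Among the genes tested, 2.14% had a larger difference in either direction.

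Myh11, the smooth muscle myosin heavy chain (transcript cluster 17328368), read 9.63 and 9.82 against 9.01 and 9.28. Both mutant-labelled arrays lay above both wild-type arrays. The levels were 9.73 ± 0.14 and 9.14 ± 0.20 (SD, n = 2), and the log2 difference was 0.58 (SE 0.17, limma adjusted p = 1). It was 1.54-fold higher within replicate 1 and 1.45-fold within replicate 2, which puts it just short of the 1.5-fold rule in the second replicate.

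The smooth muscle actins read in opposite directions within both replicates, although neither difference passed the adjusted limma p. Acta2, which encodes vascular smooth muscle α-actin (transcript cluster 17364098), read 13.34 and 13.67 on the mutant-labelled arrays and 13.45 and 13.78 in wild type. Its groups overlapped, because the offset between replicate numbers, 0.34 and 0.33 in the groups, was larger than the difference between groups (-0.11, SE 0.21, limma adjusted p = 1). Within the replicates it was lower by 0.11 and 0.10, which is 1.08-fold and 1.07-fold.

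Actg2, the γ-actin of enteric smooth muscle (transcript cluster 17468183), read 11.33 and 11.24 against 11.06 and 10.96. Its groups did not overlap. The log2 difference was 0.27 (SE 0.12, limma adjusted p = 1), with 0.26 and 0.27 within the replicates, or 1.20-fold and 1.21-fold higher. Smooth muscle, skeletal, cardiac and cytoplasmic actins are nearly identical as proteins. How far the probes of each actin row read the other actins was not tested.

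Tagln encodes transgelin (SM22α), an actin-bundling protein (transcript cluster 17526576). It read 12.03 and 11.99 on the mutant-labelled arrays against 12.27 and 12.30 in wild type. The groups did not overlap, and the arrays of a group lay at most 0.05 apart. The log2 difference was -0.27 (SE 0.12, limma adjusted p = 1), 1.18-fold lower within replicate 1 and 1.24-fold lower within replicate 2.

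Cnn1, calponin 1, which binds actin and restrains the myosin ATPase (transcript cluster 17515402), read 11.72 and 11.97 against 11.98 and 12.18. The higher mutant-labelled array lay just below the lower wild-type array, at 11.972 against 11.977. The log2 difference was -0.23 (SE 0.17, limma adjusted p = 1), with -0.26 and -0.20 within the replicates.

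The tropomyosins, which lie along the actin filament and govern myosin access, were read by a row each. Tpm2, β-tropomyosin (transcript cluster 17424656), read 9.86 and 9.75 against 10.03 and 9.88, a difference of -0.15 (SE 0.13, limma adjusted p = 1) with -0.17 and -0.13 within the replicates. Its groups did not overlap, although the gap between the nearest arrays was small. Tpm1, α-tropomyosin (transcript cluster 17528430), read 10.90 and 11.39 against 10.92 and 11.39, with exactly equal values in replicate 2.

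Lmod1, leiomodin 1, an actin filament nucleator of smooth muscle (transcript cluster 17217596), held exactly equal values within each replicate, 8.27 in both arrays of replicate 1 and 8.47 in both of replicate 2. So did 25.7% of the genes tested. Since the origin of equal values is not known here, they do not show that Lmod1 or Tpm1 was unchanged.

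Des encodes desmin, the intermediate filament that links contractile units in muscle cells (transcript cluster 17214476). It read 8.11 and 8.24 on the mutant-labelled arrays against 7.59 and 7.99 in wild type. The groups did not overlap, but the wild-type arrays lay 0.40 apart, as far as the groups did (0.38, SE 0.20, limma adjusted p = 1). The difference was 0.51 within replicate 1 and 0.25 within replicate 2, the least repeatable of the 10. A further row of the table names Des together with Gm15179; it was dim, at 5.03 in replicate 1 and 5.89 in replicate 2, with equal values in both groups.

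The gap between the differences of replicate 1 and replicate 2 had a median of 0.03 over the 10 genes and 0.05 over all genes tested, medians to which exactly equal values contribute. It was 0.01 for Mylk, Acta2 and Actg2, 0.02 for Tpm1, 0.04 for Tpm2, 0.05 for Cnn1, 0.07 for Tagln, 0.08 for Myh11 and 0.27 for Des, and 0 for Lmod1 through its equal values. Mylk and Myh11 ranked highest in both replicates, and Tagln, Cnn1 and Tpm2 took the 3 lowest places in both. Arrays of the groups did not overlap for 4 genes read higher (Mylk, Myh11, Des and Actg2), beside 7.66% of all genes tested, and for 3 read lower (Tagln, Cnn1 and Tpm2), beside 9.25%. The genes that run low in 1 replicate number and high in the other differed by gene as well. In wild type, Tpm1 was 0.47 and Acta2 0.33 brighter in replicate 2, while Tpm2 was 0.15 and Actg2 0.10 dimmer. These offsets are of the size of the differences between groups, or larger, for Acta2, Cnn1, Tpm1, Tpm2, Des and Lmod1.

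**Figure D2:**
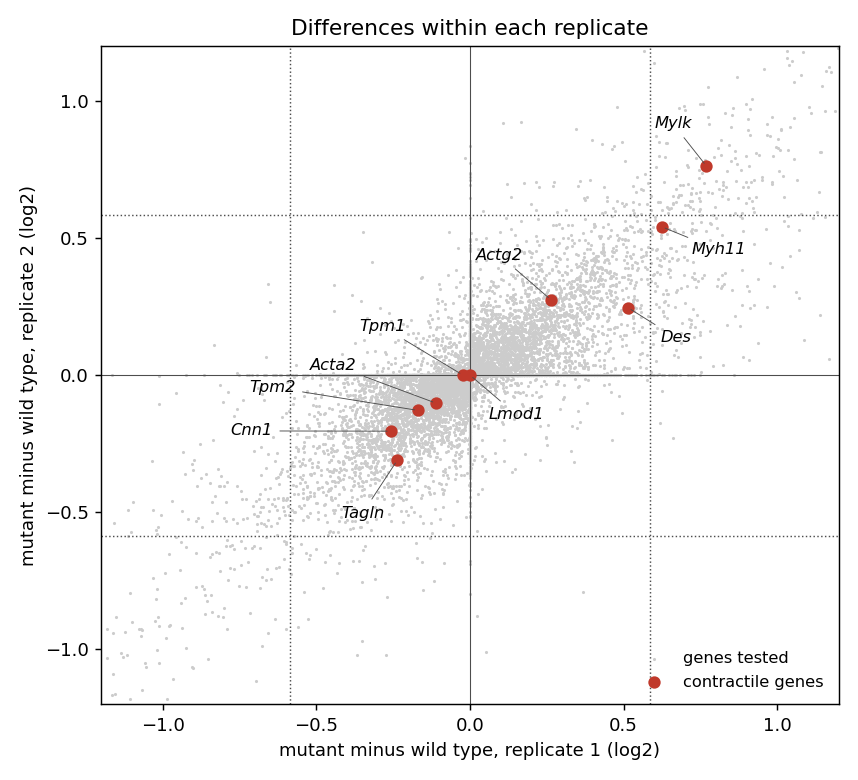
Mutant-labelled minus wild-type log2 level within replicate 1 (horizontal) and replicate 2 (vertical) for the 10 contractile genes (red) among the 17841 genes tested (grey; 212 lie outside the axes); dotted lines mark 1.5-fold. Mylk lies past both lines, Myh11 past the replicate 1 line only, and Acta2, Tagln, Cnn1 and Tpm2 lie in the lower left.

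The regulators of these genes were read from a separate list of 14, all tested. Myocd, which encodes myocardin, the SRF coactivator of smooth muscle, read 8.42 and 8.67 on the mutant-labelled arrays against 7.44 and 7.73 in wild type, so that both mutant-labelled arrays were higher. It was 1.95-fold higher (a difference of 0.96, SE 0.18, limma adjusted p = 0.665), with 0.98 and 0.94 within the replicates. Klf4, a zinc finger factor known to repress smooth muscle genes, was higher as well, by 0.68 and 0.65. Srf differed by -0.05 and -0.10, Mrtfa by 0.27 and 0.19 and Mrtfb by 0.08 and 0.17. Of the 14 regulators, 7 were higher and 3 lower in both replicates, and 2 were at least 1.5-fold higher in both. With group as the only term, 0 passed the adjusted limma p, and the median was 0.08. Of all genes tested, 16.8% were higher and 19.5% lower in both replicates. At 1.5-fold, 1.47% were higher and 1.15% lower in both. These shares also stand beside the counts of each list below.

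Other parts of the contractile apparatus held few differences of that size. Of 16 thin filament partners tested, 2 were higher and 9 lower in both replicates (median -0.06), and the one past 1.5-fold was Tpm3, a further tropomyosin gene, at -0.78 and -0.62. Of 16 genes for myosin light chains, other kinases and the myosin phosphatase, 5 were higher and 4 lower, with 0 past 1.5-fold and a median of 0. The light chain gene Myl9, the substrate of the Mylk kinase, held equal values in both replicates. Of 21 dense plaque, Z-disc and anchor genes, 6 were higher and 6 lower (median -0.0002), and Pdlim3, a PDZ and LIM protein of muscle Z-discs, was past 1.5-fold at 1.04 and 0.82. In the fit with group as the only term, 0 genes of these lists passed the adjusted limma p.

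Among 22 membrane, calcium and cGMP genes of smooth muscle, 6 were higher and 7 lower in both replicates (median 0). Pde5a, the phosphodiesterase that breaks down cGMP and thereby opposes relaxation, was the one past 1.5-fold. It read 11.17 and 11.02 against 9.45 and 9.45, a 3.12-fold difference (limma adjusted p = 0.312). Of 16 TGF-beta ligands, receptors and matrix targets, a pathway known to induce Acta2 and Tagln in fibroblastic cells, 4 were higher and 7 lower (median -0.04), with Tgfbi at -0.86 and -0.78. The fit that called Mylk and Myh11, with a further quantile normalization and the replicate number as a block, called 2.3% of 17328 genes tested. Among them were genes of these regulator and partner lists: Myocd (limma, adjusted p = 0.0415), Klf4 and Pdlim3 (0.0393 each), Ppp1r12b, a subunit of the myosin phosphatase (0.0461), and Pde5a and Tgfbi (0.0387 each). Markers of other cells were called there too, such as the osteoblast marker Ibsp (limma, adjusted p = 0.0387) and the macrophage marker Mrc1 (0.0461).

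Markers of other cells that express these genes were read on the same arrays. Of 12 pericyte markers, 4 were higher and 2 lower in both replicates, with 0 past 1.5-fold. Rgs5 differed by 0.17 in each replicate and Notch3 by 0.41 and 0.43. The 2 lower in both were Cspg4, at -0.12 and -0.14, and Anpep, at -0.36 and -0.18. The summed pericyte signal (log2 of the sum of linear levels) ran from 13.45 to 13.54 on the mutant-labelled arrays. In wild type it ran from 13.51 to 13.57. Pdgfrb, the brightest pericyte marker, weighed most in this sum, at 12.56 and 12.64 against 12.54 and 12.64. The labels' tissue tag reads myoblast, whereas titles and cell type read osteoblast. Of 23 skeletal muscle markers 4 lay below background, and Myod1 and Myog, the defining factors of myoblasts, were dim, at 5.45 and 5.95 in replicate 1 and 6.42 and 6.72 in replicate 2, with equal values in both groups. Of the other 19, 4 were higher and 1 lower in both, with Myh1 at 1.22 and 0.90 and Actn3 at 0.99 and 0.80. Equal values in both replicates were held by 8 of the 19. The summed skeletal muscle signal was 10.94 and 11.39 on the mutant-labelled arrays against 10.45 and 11.08. Of 10 cardiac markers, 1 was higher and 0 lower, and 5 held equal values in both replicates.

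Col1a1, the main collagen of osteoblasts, read 13.45 and 13.57 against 13.47 and 13.57. Of 13 osteoblast markers tested, 1 was higher and 8 lower in both replicates, 6 of them past 1.5-fold, including Ibsp at -1.56 and -1.53. Of 15 macrophage markers, 14 were lower in both, 12 of them past 1.5-fold, and their summed signal was 11.38 and 11.53 on the mutant-labelled arrays against 13.00 and 13.10 in wild type. Of 12 endothelial markers, 3 were higher and 0 lower, with Cdh5 at 1.70 and 1.27 but Pecam1 at -0.15 and 0. Emcn, also among the 3, read 5.15 and 5.26 on the mutant-labelled arrays. In wild type it read 3.76 and 4.42, below background, so it was tested only through the mutant-labelled arrays. The summed endothelial signal was 12.07 and 12.14 against 11.95 and 12.03. Eng weighed most in it, at 11.70 and 11.75 against 11.74 and 11.75. Of 7 adipocyte markers above background, 0 were higher and 5 lower, and the summed signal was 11.33 and 11.25 against 11.91 and 11.74. The part of any of these cells in the differences of the contractile genes was not tested. In RNA from whole cultures, fewer cells of a type and less RNA per cell cannot be told apart.

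**Figure D3:**
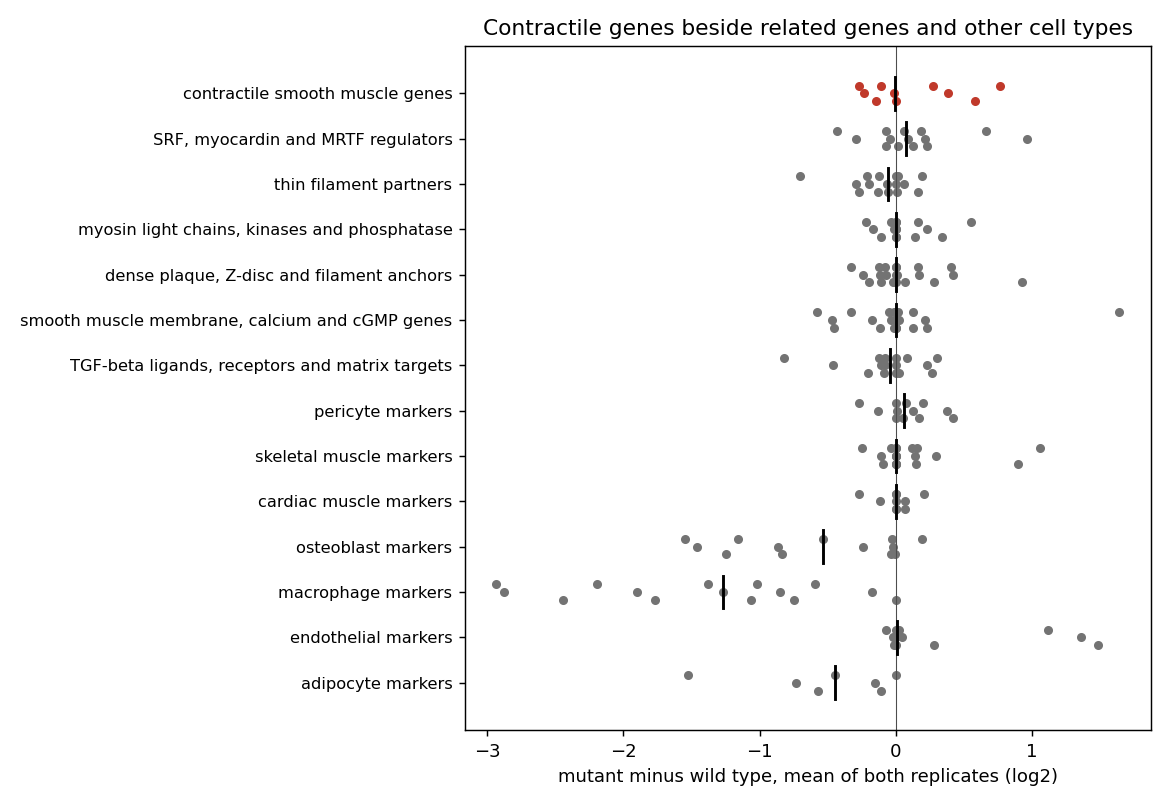
Mean of the within-replicate log2 differences (mutant-labelled minus wild type, horizontal axis) for the contractile genes (red) and for the other lists (grey), 1 point a gene, with a black bar at each list's median. The contractile genes spread from -0.27 to 0.77 around a median of -0.01, and the macrophage list lies furthest to the left.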

How the data were processed

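Total RNA, 200 ng per culture, was labelled per the labels' protocols and hybridised to Mouse Gene 2.0 ST arrays (4 arrays, 41345 rows). Partek and RMA appear in the submitters' processing notes, without version or order, and the deposited values were taken as log2 levels; the sources used here give neither centring nor log base. Rows were named through the platform annotation: 23521 had 1 symbol, 1814 several and 16010 none listed. Genes with at least 2 of 4 arrays above the background were tested with limma 3.58.1 in R 4.3.3. Genes, lists and the rule for naming were chosen with earlier results of these data known. Outside the 10 members that rule named, per list and direction, up to 4 genes that differed by 1.5-fold or more, with 1 sign, within each replicate, otherwise the gene of smallest p, and a few fixed markers; other genes named here, among them Mrtfa, Mrtfb, Myl9 and Ppp1r12b, were chosen after their values were seen. Of 220 list entries 209 had a row. Most genes the rule names in the lists of other cell types are covered by counts only, and the gene it names in the myosin list is not reported here. Alternatives covered the dim-gene filter, normalization, probe set choice, the replicate block, variance trend, fold threshold and arrays left out.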

Additional observations from a re-analysis of the deposited data

How the results depend on the processing

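The directions of the 4 genes read higher (Mylk, Myh11, Des, Actg2) and of Tagln, Cnn1 and Tpm2 were kept in all alternatives run. For Acta2 and Tpm1 the sign turned with an array left out, where the offset between replicates stays in the difference: Acta2 ran from -0.28 to 0.063 and Tpm1 from -0.26 to 0.23. Des ran from 0.18 to 0.58, Cnn1 from -0.36 to -0.11 and Tpm2 from -0.22 to -0.07. The median over the 10 genes ran from -0.10 to 0.16 in these fits and that of all genes tested from -0.16 to 0.15. It was -0.045 with each array centred on its median, where that of all genes was -0.04. Deviations from the group mean correlated between arrays of 1 number (r = 0.92 over genes, which equal values raise), but the labels do not say what a number shares. With the replicate block, 0 genes passed the adjusted p (limma), as without it, and 7 of the 10 contractile genes and 2319 of all genes had an unadjusted limma p under 0.05, on 1 residual degree of freedom. With the block and quantile normalization again, 399 genes and 2 of the 10 passed; the intensity trend called 49 genes and 0 of the 10. At 2-fold, 0 of the 10 were apart in both replicates. By replicate 1 alone 2 were 1.5-fold apart, and by replicate 2 alone 1. The number of arrays limits the precision.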
